A study of Homo sapiens with 4 samples.

Results

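The sgRNAs described here target the genes that follow DDB1 on the long arm of chromosome 11 (11q). They number 984, against 246 genes, of 77441 sgRNAs in the screen, which cover 19112 gene symbols and 1000 non-targeting controls. A gene was taken where its midpoint in GENCODE 44 lay from 61.343 to 71.3 Mb of chromosome 11 (GRCh38), a range that starts just past the end of DDB1 (chromosome 11, 61299451 to 61342596, minus strand). OTUB1, TAF6L, keratin-associated protein genes and ribosomal protein genes were left out, which removed 5 genes of the range. The range was chosen by the fold changes of this screen, HQ461 over DMSO, read along the chromosome, so those fold changes are given as a description, without a test. Each gene had 4 sgRNAs, and 4 sgRNAs at 0 reads in both columns were not compared, which left 242 genes with 4 sgRNAs and 4 genes with 3.

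The screen asked which gene knockouts let A549 cells, a human lung adenocarcinoma line, survive HQ461, a small molecule that acts as a molecular glue. Cells transduced with the Brunello library, in which each sgRNA directs the nuclease Cas9 to cut 1 gene, were selected with puromycin and kept for 3 weeks in 4 µM HQ461, or in 0.1% DMSO as the vehicle. GEO's labels name 2 samples for each condition, but the table holds 1 column for HQ461 and 1 for DMSO, so no value below has a replicate check and no difference was tested between cultures. The HQ461 column held 16127620 reads and the DMSO column 14428845. Counts were scaled by the median ratio over sgRNAs, and a gene's log2 fold change (HQ461 over DMSO) is the median over its sgRNAs of the log2 ratio of normalized reads plus 1. The table names sgRNAs by number and target symbol only. Each sgRNA was therefore placed at the midpoint of its gene, and 80 of the 246 genes overlapped another of them.

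DDB1 is the adaptor of the CUL4 ubiquitin ligases, and it is the protein to which HQ461 recruits CDK12 with its partner cyclin K. In a pooled knockout screen, the reads of an sgRNA follow the growth of the cells that carry it, and genes that lie side by side usually have unrelated functions. The part of 11q beyond DDB1 belongs to band 11q12 to 11q13, a gene-dense stretch that holds fatty acid desaturases, organic ion transporters, the tumour suppressor gene MEN1 and, towards its far end, the cyclin D1 gene CCND1.

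The 4 DDB1 sgRNAs had 17480, 21173, 26816 and 18863 normalized reads with HQ461 and 49.1, 16.7, 20.8 and 11.7 with DMSO. Beyond it, sgRNAs were also more abundant with HQ461 than with DMSO, by much less. Over the 246 genes the median log2 fold change was 0.59 (quartiles 0.19 and 1.04), and 205 of them lay above 0. Of these genes, 66 (26.8%) were at least 2-fold higher with HQ461, a size reached by 9.01% of all 19111 genes compared, from which nothing is read since the range rests on the same values, and 4 (1.63%) were at least 2-fold lower, against 7.69% of all genes. The 984 sgRNAs together took 1.39% of reads with HQ461 and 1.09% with DMSO. Their exact 95% Clopper-Pearson intervals were 1.38% to 1.40% for HQ461 and 1.08% to 1.09% for DMSO, and cover counting error only. Nothing is read from the separation of these intervals, since the range was chosen by the same reads. Scaled by total reads instead, the median of all genes moves by -0.68 and that of these 246 genes is -0.074, with 17 genes 2-fold higher and 21 lower. The shift applies to every value below, so that any smaller than it in size turns negative on that scale. Relative to the median of all genes, the 246 genes were 0.61 higher with the median ratio and 0.63 higher with total reads.

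The excess with HQ461 was uneven along the arm. A fit of 2 levels to 808 genes of 11q, from the centromere to the end of the arm, placed the drop between DAGLA (midpoint 61.71 Mb) and MYRF (61.77 Mb), 0.400 Mb beyond the end of DDB1. A fit of 3 levels kept this inner step and added an outer step at 68.03 Mb, between ALDH3B1 and NDUFS8, 6.68 Mb beyond DDB1. The 2 levels took up 39.6% of the sum of squares between genes, and the 3 levels 44.7%. Of the genes described here, 10 lay before the inner step with a median of 1.48 (quartiles 1.00 and 1.98). Between the steps lay 212 genes with a median of 0.62 (0.21 and 1.05), and beyond the outer step 24 genes with a median of 0.18 (-0.07 and 0.59). In these groups 70%, 26.9% and 8.33% of genes were at least 2-fold higher with HQ461, beside the 9.01% of all genes. The fit picks the positions that best separate the levels, so the gaps between levels are a description too.

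The 10 genes between DDB1 and the inner step were TKFC, CYB561A3, TMEM138, TMEM216, CPSF7, SDHAF2, PPP1R32, LRRC10B, SYT7 and DAGLA, and all had a log2 fold change above 0. TKFC, which encodes a triokinase, starts at 61333220 and so overlaps DDB1, and it had the highest value of the 246 genes. Its 4 sgRNAs had 1982, 180, 390 and 2490 normalized reads with HQ461 and 438, 30, 60 and 351 with DMSO, a log2 fold change of 2.61. All 4 TKFC sgRNAs lay between 2.17 and 2.82, so none of them alone set the value. SDHAF2, an assembly factor of succinate dehydrogenase, had 113, 270, 236 and 1244 normalized reads with HQ461 and 36, 75, 60 and 121 with DMSO, a log2 fold change of 1.90. DAGLA, the diacylglycerol lipase that makes the endocannabinoid 2-arachidonoylglycerol, had 180, 363, 605 and 1059 with HQ461 and 52, 77, 113 and 102 with DMSO, a log2 fold change of 2.32. A fit tends to place a step after a high gene followed by lower ones, so nothing is read from the value of DAGLA. LRRC10B and SYT7, just before it, had 0.96 and 0.88. Those values lay below FADS1 at 1.90 and FADS2 at 1.10, past the step.

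Not every gene of this stretch was as high. CPSF7, a subunit of the cleavage factor of messenger RNA 3′ ends, had 10, 133, 64 and 102 normalized reads with HQ461 and 62, 119, 45 and 72 with DMSO, a log2 fold change of 0.33. LRRC10B and the calcium sensor SYT7 stood at 0.96 and 0.88. TMEM138 and TMEM216, which encode proteins of the ciliary transition zone, had 1.10 and 1.40, and in each 1 sgRNA lay below 0, at -0.12 and -0.40. CYB561A3, a cytochrome b561 reductase, had 1.57 and PPP1R32 had 2.01.

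Just past the inner step the values of neighbours diverged. MYRF, a transcription factor of myelin genes, had 2, 82, 70 and 311 normalized reads with HQ461 and 55, 72, 49 and 108 with DMSO, a log2 fold change of 0.33. TMEM258, a subunit of the oligosaccharyltransferase, stood at 0.21, and FEN1, the flap endonuclease of DNA replication, at 0.55 over 3 sgRNAs with 39.2 normalized DMSO reads in sum. The next genes, FADS1 and FADS2, which encode the delta-5 and delta-6 fatty acid desaturases, had 1.90 and 1.10. In FADS1 the sgRNAs spread widely, with 96, 144, 576 and 792 normalized reads with HQ461 and 213, 92, 64 and 55 with DMSO. FADS2 was even, with 996, 511, 419 and 212 normalized reads with HQ461 and 596, 267, 173 and 79 with DMSO. FADS3, the next desaturase, stood at -0.48. The step therefore separates group levels and is not a limit past which no gene was high.

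From 62 to 68 Mb, the stretch between the steps stayed above the level of all genes in each megabase. The megabase before it holds genes from both sides of the inner step and is left out here. Its genes past the step ran from -0.48 for FADS3 to 1.90 for FADS1. The median log2 fold change was 0.61 from 62 to 63 Mb (37 genes), 0.67 from 63 to 64 Mb (18 genes) and 0.84 from 64 to 65 Mb (35 genes). It was 0.41 from 65 to 66 Mb (48 genes), 0.63 from 66 to 67 Mb (35 genes) and 0.51 from 67 to 68 Mb (29 genes). No steady decline with distance from DDB1 is seen over these 6 megabases, and the highest of them lies in their middle. From 68 to 69 Mb the median was 0.16 (13 genes), from 69 to 70 Mb it was 0.43 (7 genes) and from 70 to 71 Mb it was 0.27 (5 genes).

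A running median over 15 genes showed no drop at the inner step, before which too few genes lay to fill a window. It was 1.10 from TKFC to FADS2 and 0.88 from CPSF7 to FTH1, both across the step. From FEN1 to SCGB1A1, wholly past the step, it was again 1.10. It came down to 0.61 from EEF1G to BSCL2 (62.57 to 62.70 Mb) and showed dips within the stretch. It reached 0.19 from LBHD1 to WDR74 (62.67 to 62.84 Mb), a cluster with the mRNA export receptor NXF1 and the RNA polymerase II subunit POLR2G. Under 30 normalized DMSO reads were found for 16.2% of sgRNAs from 62 to 63 Mb and for 14.1% from 65 to 66 Mb, against 2.78% from 63 to 64 Mb and 6.52% from 64 to 65 Mb. The share was 7.91% from 66 to 67 Mb, 12.1% from 67 to 68 Mb, 13.5% from 68 to 69 Mb, 17.9% from 69 to 70 Mb and 5% from 70 to 71 Mb. With these sgRNAs removed, the median went up in some intervals and down in others. It was then 0.50 from 68 to 69 Mb, against 0.16 with all sgRNAs, and 0.56 from 65 to 66 Mb, against 0.41. It was 0.46 from 62 to 63 Mb, against 0.61 with all sgRNAs, 0.47 from 67 to 68 Mb, against 0.51, and 0.27 from 69 to 70 Mb, against 0.43. The part of low reads in these levels was not tested.

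The outer step was placed less firmly than the inner one. The 5 genes before it were TBX10, ACY3, ALDH3B2, UNC93B1 and ALDH3B1, with log2 fold changes of 0.43, 0.31, 1.07, -0.26 and 1.06. The 5 after it were NDUFS8, TCIRG1, CHKA, SUV420H1 (now KMT5B) and C11orf24, with 0.16, -0.20, -0.08, 0.16 and -0.62. ALDH3B1, an aldehyde dehydrogenase, had 148, 272, 216 and 139 normalized reads with HQ461 and 152, 135, 99 and 59 with DMSO, whereas NDUFS8, a subunit of respiratory complex I, had 8, 18, 41 and 162 with HQ461 and 12, 21, 28 and 105 with DMSO. With sgRNAs under 30 normalized DMSO reads removed, the outer step moved to 90.12 Mb, past all genes described here. At the positions of both steps as fitted, the genes between them still lay 0.32 above those beyond under that setting, beside 0.44 with all sgRNAs.

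The values just inside and just outside the 2 ends of the range were as follows. On the centromere side, TKFC, CYB561A3 and TMEM138 had 2.61, 1.57 and 1.10, and PGA5 and VWCE, just outside, had 1.90 and 1.86, while DDB1 itself had 10.25. On the telomere side, PPFIA1, CTTN and SHANK2 had -0.05, -0.70 and 0.27, and DHCR7, NADSYN1 and KRTAP5-7, just outside, had 0.25, 0.05 and 1.01.

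The 10 highest of the 246 genes came from both sides of the inner step and from unrelated families. They were TKFC, SCGB2A2, DPP3, DAGLA, SLC22A8, PPP1R32, RARRES3, FERMT3, FKBP2 and PELI3, with log2 fold changes of 1.90 to 2.61. SLC22A8, the organic anion transporter OAT3 of the kidney, had 301, 125, 88 and 2994 normalized reads with HQ461 and 139, 42, 12 and 142 with DMSO, a log2 fold change of 2.18. SCGB2A2, the secreted protein mammaglobin, had 5, 469, 721 and 545 with HQ461 and 22, 117, 89 and 65 with DMSO, a log2 fold change of 2.50. In SLC22A8 all 4 sgRNAs lay above 1, while in SCGB2A2 1 sgRNA lay at -2.02 and the others at 1.99 or more. DPP3, a dipeptidyl peptidase that binds KEAP1, lies at 66.49 Mb and had 104, 645, 1928 and 1180 normalized reads with HQ461 and 227, 154, 288 and 139 with DMSO, a log2 fold change of 2.40. PELI3, a ubiquitin ligase of innate immune signalling and a near neighbour of DPP3, had 41, 411, 709 and 1014 with HQ461 and 25, 109, 189 and 162 with DMSO. RARRES3, FERMT3 (the integrin activator kindlin-3) and FKBP2 (a prolyl isomerase) had 2.00, 1.94 and 1.91.

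The 4 genes at least 2-fold lower were NXF1, BANF1, POLA2 and RBM4. NXF1 had 0, 1, 73 and 180 normalized reads with HQ461 and 7, 12, 104 and 155 with DMSO, a log2 fold change of -1.51, the lowest of all. BANF1, which tethers chromatin to the nuclear envelope, had 0, 5, 168 and 264 with HQ461 and 7, 12, 318 and 283 with DMSO, and POLA2, a subunit of DNA polymerase alpha, had 0, 10, 0 and 59 with HQ461 and 19, 24, 1 and 31 with DMSO. RBM4, a splicing regulator, had 41, 46, 44 and 106 with HQ461 and 173, 151, 57 and 57 with DMSO. BANF1 stood at -1.07, POLA2 at -1.06 and RBM4 at -1.02. In NXF1, BANF1 and POLA2 the sgRNAs with fewest HQ461 reads also had few with DMSO. With sgRNAs under 30 normalized DMSO reads removed, NXF1 stood at -0.14 and BANF1 at -0.51, each over 2 sgRNAs, and POLA2 at 0.91 over 1. RBM4 kept its 4 sgRNAs and its value, and GAL3ST3, a sulfotransferase, was the other gene 2-fold lower, at -1.17. The other 6 of the 10 lowest were UBXN1, EEF1G, GAL3ST3, CTTN, RELA and C11orf24, at -0.75 to -0.62.

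Gene groups of the region were described by role, beside the median of all genes (-0.02) and of the 246 genes (0.59). The 6 secretoglobins, small secreted proteins of epithelia, lie from 62.19 to 62.41 Mb and had a median of 1.45, with 4 at least 2-fold higher. SCGB2A1, SCGB1A1 and SCGB1D4 had 1.64, 1.56 and 1.33, SCGB1D2 had 0.96 and SCGB1D1 0.29. All 6 lay above 0. The 8 listed SLC22 transporters of organic ions, from 62.96 to 64.60 Mb, had a median of 0.83, with 3 at least 2-fold higher and 7 above 0. SLC22A20 (now SLC22A20P), at 65.23 Mb with 0.32, was not on this list. After SLC22A8 the values were 1.29 for SLC22A25 and 1.00 for SLC22A24, and the lowest was -0.02 for SLC22A11. The 4 PLAAT acyltransferases had a median of 0.67, from -0.04 for PLA2G16 to 2.00 for RARRES3.

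The groups for basic cell functions had fewer reads with DMSO than the secretoglobins or the SLC22 transporters. The 12 genes of transcription and RNA processing had a median of 0.16, with 3 at least 2-fold higher (SART1 at 1.52, SF3B2 at 1.41 and SF1 at 1.28, all splicing factors) and 2 at least 2-fold lower (NXF1 and RBM4). The Integrator subunit INTS5 and POLR2G stood at -0.31 and -0.50. The 9 genes of DNA replication, repair and mitosis had a median of 0.55, with 2 of them at least 2-fold higher. These were INCENP, of the chromosomal passenger complex, at 1.43 and MUS81, a structure-specific nuclease, at 1.29. POLA2, at -1.06, was at least 2-fold lower, and RAD9A stood at -0.60. The median over genes of their normalized DMSO reads per sgRNA was 45.2 and 40.8 in these 2 groups, against 191 for the secretoglobins and 115 for the SLC22 transporters. With sgRNAs under 30 normalized DMSO reads removed, the medians were 0.26 for transcription and RNA processing and 0.60 for replication. Of 4 respiratory chain genes none was 2-fold higher or lower, with COX8A at 0.75, UQCC3 at 0.58, NDUFS8 at 0.16 and NDUFV1 at 0.01.

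The 11 measured genes around CCND1, from 69.09 to 70.86 Mb, lie beyond the outer step, and their median was 0.27. CCND1, which encodes cyclin D1, had 50, 59, 55 and 109 normalized reads with HQ461 and 54, 59, 51 and 92 with DMSO, a log2 fold change of 0.05. Its 4 sgRNAs lay from -0.10 to 0.25, so its level with HQ461 was close to that with DMSO in each. ANO1, a calcium-activated chloride channel, had the highest value of this group at 1.02, and CTTN, the actin regulator cortactin, the lowest at -0.70. With sgRNAs under 30 normalized DMSO reads removed the median of 10 of these genes was 0.18, and none was 2-fold higher.

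The share of single sgRNAs above 0 fell along the arm. It was 92.5% before the inner step, 72.2% between the steps and 56.2% beyond the outer step. Beside these, it was 54.5% on 11q beyond 71.3 Mb, 46.6% on chromosomes other than 11 and 17, and 49.7% of all sgRNAs against genes. Leaving out chromosomes 11 and 17 was a choice that lowers the comparison level. The median over genes was -0.09 with them left out and -0.02 over all genes. Of 844 sgRNAs compared between the steps, the median was 0.61 and the 10th and 90th percentiles were -0.87 and 2.08. Non-targeting controls (997 compared) had a median of -0.04 and percentiles of -0.85 and 1.12. The 40 sgRNAs before the inner step had a median of 1.65, and the 96 beyond the outer step had 0.27. At least 2-fold higher were 65%, 34.7% and 19.8% of sgRNAs in these groups along the arm, beside 19.5% of all sgRNAs against genes. In genes with 4 sgRNAs compared, all 4 lay above 0 in 7 of 10 genes before the inner step, in 58 of 208 (27.9%) between the steps and in 1 of 24 beyond the outer step. On chromosomes other than 11 and 17 this was so in 6.63% of 16315 genes. The range among the 4 sgRNAs of a gene was as wide as elsewhere, with a median of 2.14 log2 units between the steps and 2.15 on the other chromosomes.

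The excess between the steps was seen at every level of reads with DMSO. The median log2 fold change of sgRNAs was 0.63 under 30 normalized DMSO reads (91 sgRNAs), 0.69 from 30 to 100 (273), 0.56 from 100 to 300 (414) and 0.59 above (66). On chromosomes other than 11 and 17 the same 4 classes had 0.01, -0.10, -0.10 and -0.05. The spread among sgRNAs grew as reads became fewer in both, with an SD of 2.04 in the lowest class and 0.76 in the highest between the steps, against 1.98 and 0.89 on the other chromosomes. Beyond the outer step the medians of the 4 classes were 0.34 (13 sgRNAs), 0.34 (38), 0.47 (37) and -0.36 (8). In all but the highest class these too lay above the other chromosomes, and from 100 to 300 reads they came near the level between the steps.

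Set beside the rest of the arm, the genes described here fall between 2 levels. The 135 genes from the centromere to DDB1 had a median of 1.82 (quartiles 1.40 and 2.23), 88.9% of them at least 2-fold higher with HQ461. The 427 genes of 11q beyond 71.3 Mb had a median of 0.12 (-0.22 and 0.52) with 7.49% at least 2-fold higher, and the short arm had 0.05 over 416 genes. Genes between DDB1 and the inner step lay near the first of these levels, at 1.48, and those beyond the outer step near the second, at 0.18. The 212 genes between the steps, at 0.62, lay between the 2 levels, and their upper quartile, 1.05, lay under the lower quartile of the centromere side. Differences between these regions have no test, since each condition is 1 column.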

How the data were processed

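The authors counted reads per sgRNA of the Brunello library with MAGeCK 0.5.9.2 and deposited the counts without normalization, 1 column per condition. GEO's labels name both samples of a condition for its column, and the sources used here do not say in what way these were joined. No use of molecular identifiers is described, so the counts are of PCR reads. Their number accounts for counting error only, and other sources of error are not covered by it. The column that the sample descriptions give for HQ461 held 16127620 counts and the one for DMSO 14428845.

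Values were computed with numpy 2.4.6, pandas 2.3.3 and scipy 1.17.1 under Python 3.11.15. Size factors were median ratios over sgRNAs (0.833 for HQ461 and 1.20 for DMSO), so an sgRNA with equal raw counts in both columns has a log2 ratio of 0.53. The 273 sgRNAs with no read under either condition were dropped, 1 was added to each normalized count, and a gene's value is the median over its sgRNAs. A fold change on this scale understates that of sgRNAs with few reads. A value was called when at least 2-fold higher or lower. Genes were placed by GENCODE 44 on GRCh38, the build in the submitters' processing notes: 17762 by symbol, 187 with a hyphen restored, 954 through an older symbol in RefSeq, and 209 not at all. Some of the unplaced symbols may lie in the range, so the 246 genes and their counts may be incomplete. Among the 246 genes described, 16 were placed through an older symbol and 1 by its hyphen. Steps were fitted by least squares to genes of 11q in order of midpoint, from 53.4 Mb, without DDB1, with at least 10 genes per level. The procedure was tested on simulated data with steps set near those fitted here. That tries the code and says nothing on whether the steps of these data are well placed.

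The members, the gene groups and the rule for named genes were chosen with earlier results of these data known. Named were the 10 highest and 10 lowest genes with at least 3 sgRNAs, 5 genes on each side of the split, 3 on each side of each end of the range, and the groups' members. The 3-level fit's outer step was chosen as a result after its value was seen. RBM14-RBM4 is a read-through of 2 other members, whose sgRNAs may share targets. Paralogs in the gene groups may do so too, which was not checked. No test was made, because a single column per condition holds no spread between cultures. Alternatives covered the scaling (TMM by edgeR 4.0.16 among them), low counts, the pseudocount, the gene value, the genes left out and the fit. FGF19, listed among the neighbours of CCND1, was not analysed here. Sequences of the sgRNAs were not used here.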

Additional observations from a re-analysis of the deposited data

How the results depend on the processing

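Other scalings shift all genes nearly alike, and a minimum of 3 sgRNAs drops 1 gene of the fit, so these 5 alternatives say little about a step's position. Of the 10 others, 9 kept the inner step between DAGLA and MYRF, and it moved to 62.33 Mb, after SCGB1D4, when the normalized reads of a gene's sgRNAs were summed. In the fit to the 246 genes alone, 10 genes lay before it, which is the fewest the fit allows, so it could not fall nearer to DDB1. The 3-level fit given above is also among the 9 and is no separate check. Of 8 such alternatives, 3 kept the outer step and 5 moved it. It was at 67.60 Mb with summed reads or the 246 genes alone, at 67.83 Mb with the mean over sgRNAs or with sgRNAs in place of genes, and at 90.12 Mb with a minimum of 30 normalized DMSO reads, which leaves no gene described here beyond it. With both steps held in place, genes between them lay 0.32 to 0.57 above those beyond and 0.85 to 1.13 below those before, over 11 alternatives. The 5 alternatives set apart above hardly change these gaps. The fit also chose the steps to separate the levels, so the gaps are a description. Scaling by total reads shifts all genes by -0.68, by its construction. It gave medians of -0.074 over all 246 genes, 0.80 and -0.10 on the centromere and telomere side of the inner step, -0.057 between the steps and -0.48 beyond, with 17 genes 2-fold higher and 21 lower. Without the highest sgRNA of each gene, which lowers every gene, the medians were 0.32, 0.31 on the telomere side, 0.33 between the steps and -0.15 beyond, with 31 genes higher and 13 lower. With summed reads they were 0.80, 0.75 on the telomere side and 0.81 between the steps (the cause was not tested). The 4 genes 2-fold lower became 2 with a minimum of 30 normalized DMSO reads or with scaling on sgRNAs outside chromosomes 11 and 17, and 0 with a pseudocount of 5 or summed reads. The 3 levels and their alternatives were chosen after seeing the data. No paired analysis was possible because HQ461 and DMSO each have a single column, and leaving out a replicate was not run for that reason.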

Other observations

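Of the genes of the range that were left out above, TAF6L (62771357 to 62787342), a subunit of the SAGA coactivator, had 408, 301, 736 and 856 normalized reads with HQ461 and 99.1, 62.5, 117 and 113 with DMSO. OTUB1 (63985853 to 64001811), a deubiquitinase, had 109, 3227, 3216 and 5892 with HQ461 and 101, 173, 127 and 198 with DMSO. The mitochondrial ribosomal protein genes MRPL49, MRPL11 and MRPL21 had log2 fold changes of 0.06, 0.01 and 0.05. RBM14-RBM4, a read-through gene, had 84, 84, 431 and 80 normalized reads with HQ461 and 53, 52, 182 and 13 with DMSO, and its 4 sgRNAs lay above 0, while RBM14 and RBM4 alone had log2 fold changes of 0.26 and -1.02.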
